A study of Mus musculus with 51 samples.

Results

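Distal zygonema-only sites are places in the genome, away from gene starts, where an H3K4me3 peak was called in each zygonema library and in no library of another stage. They were chosen by merging the 10 peak lists of the EpiCypher H3K4me3 antibody and keeping those that held peaks of both zygonema lists, of none of the 8 lists of leptonema, early pachynema, late pachynema and diplonema, and no 5′ end of a GENCODE M21 transcript within 500 bp. There were 1674 such sites among 25578 merged sites in all, and among 13069 distal ones, of which they were 12.8%. A further 104 zygonema-only sites lay at a transcript 5′ end and were left out.

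The lists came from wild-type C57Bl/6J adult male mice. Nuclei of whole testes were fixed, stained for SCP3 with STRA8 or with H1t and SCP1, sorted by DNA content and these markers into 5 stages of meiotic prophase, and sheared by sonication before ChIP-Seq. None of the mice carried a mutation or received a treatment, and the sorted populations were enriched for a stage and not pure. The study names zygonema as the least pure of them, and gives a lower purity for zygonema experiment 2 than for experiment 1. H3K4me3 had 2 lists per stage (experiments 1 and 2), the Abcam antibody, which also binds H3K4me2 and is written here as H3K4me2/3, had 1 list per stage from experiment 2, and H3K9ac had 1 list per stage from experiment 1. The antibody label of the H3K9ac samples names H3K4me3 beside the catalogue number of the H3K9ac antibody, and they were taken as H3K9ac from their titles.

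In germ cells, H3K4me3 is found at the promoters of active genes and at recombination hotspots. At hotspots it is placed by PRDM9, a methyltransferase that recognises DNA through an array of zinc fingers. The SPO11 complex then breaks the DNA at a part of these sites in leptonema and zygonema, and the breaks are repaired during the following stages. H3K4me2 is the form with a methyl group less, and H3K9ac is an acetyl mark of open chromatin that also occurs at promoters.

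The peak lists hold positions and no heights or read counts. The depth behind a call is therefore unknown, widths stand in for a ranking, and a site without a call can carry the mark below the threshold of the peak caller. The H3K4me3 lists held from 4883 to 15699 peaks, and zygonema experiment 1 was the longest with 15699 peaks, against 11314 in zygonema experiment 2. Among 5 genes of meiosis and sorting markers looked up as a check, Sycp3 and Prdm9 had a promoter peak in all 10 lists, Sycp1 in 8 and Stra8 in the 2 leptonema lists only. Hist1h1t, which encodes the H1t used to sort the later stages, had one in 1 leptonema and 1 zygonema list and in no later list, so its promoter calls do not follow the sort. None of 5 spermatid genes (Prm1, Prm2, Tnp1, Tnp2, Acrv1) had a promoter peak in any list. Of 5 Sertoli cell genes, 1 (Wt1) had a promoter peak in zygonema, in experiment 2, and of 5 spermatogonial genes 1 (Dmrt1) had one, in experiment 1. Leptonema experiment 2 had more, with peaks at 3 Sertoli cell genes (Sox9, Wt1, Gata4) and 2 spermatogonial genes (Kit, Dmrt1). Leptonema experiment 1 had a peak at 1 spermatogonial gene (Dmrt1) and at no Sertoli cell gene. Of 5 Leydig cell genes, 1 (Insl3) had a promoter peak, in diplonema experiment 2. The part of these cells in the results was not tested.

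The sequence at the centres of the sites was compared with that beside them. Words of 8 bp were ranked on the 851 distal sites called in all leptonema and zygonema libraries but in no later one, which are other sites than the zygonema-only ones. The leading word was GCAGCAGC, or GCTGCTGC on the other strand. It lay within 100 bp of the centre at 84 of the 1674 zygonema-only sites (5.02%, exact 95% interval 4.02 to 6.18), against 0.836% of windows of the same length centred 750 bp away. Among all distal sites, 5.27% of the central windows held the word, so the zygonema-only sites did not stand above that share. All distal sites include the zygonema-only sites and other sites called in zygonema, so they are no background free of such sites. The 4697 distal sites called in zygonema experiment 1 and no other list had the word at 7.00% of centres. The 607 called in zygonema experiment 2 alone had it at 3.13%, and the 233 distal diplonema-only sites at 0.429%. The 4 zygonema-only sites below had the widest peaks among those with the word near the centre, outside untranslated regions, and are shown so that the word can be seen in its surroundings. Each run is 200 bp of the plus strand of mm10 around the site centre, with the word in capitals.

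Rbm19 intron, chr5:120182457-120182656: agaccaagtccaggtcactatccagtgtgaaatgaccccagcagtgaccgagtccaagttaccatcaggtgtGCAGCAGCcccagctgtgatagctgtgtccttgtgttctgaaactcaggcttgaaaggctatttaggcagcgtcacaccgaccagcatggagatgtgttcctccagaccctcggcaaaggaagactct
Fcho2 intron, chr13:98755546-98755745: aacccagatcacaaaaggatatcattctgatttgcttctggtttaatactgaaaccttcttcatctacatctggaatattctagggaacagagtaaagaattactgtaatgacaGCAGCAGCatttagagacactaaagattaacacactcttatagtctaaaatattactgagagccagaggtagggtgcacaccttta
Cphx3 intron, chr14:26137012-26137211: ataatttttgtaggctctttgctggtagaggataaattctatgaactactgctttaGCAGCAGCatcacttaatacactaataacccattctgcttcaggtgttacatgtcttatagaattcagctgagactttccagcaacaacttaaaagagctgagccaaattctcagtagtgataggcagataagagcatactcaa
Near Lrrc42, chr4:107233221-107233420: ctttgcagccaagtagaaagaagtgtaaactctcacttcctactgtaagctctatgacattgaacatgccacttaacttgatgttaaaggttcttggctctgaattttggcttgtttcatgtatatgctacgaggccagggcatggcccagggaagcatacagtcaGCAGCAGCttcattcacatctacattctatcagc

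Each of these 4 sites had an H3K4me2/3 peak in leptonema and in zygonema and an H3K9ac peak in zygonema. Rbm19 encodes an RNA-binding protein, Fcho2 a protein of clathrin-coated pits and Cphx3 a homeobox protein. At the Rbm19 site the zygonema H3K4me3 peaks were 1859 bp wide in experiment 1 and 801 bp in experiment 2, and at the Cphx3 site they were 952 bp and 1604 bp, so either experiment could hold the wider peak.

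Several of the other leading words overlapped this one. Next in the same ranking were CAGCAGCA, ACAGCAGC, GAAGCTAC and AGCAGCAG, found at 5.79%, 3.64%, 3.11% and 4.12% of the centres of zygonema-only sites. Overlapping words such as GCAGCAGC and CAGCAGCA can be read from the same stretch of DNA, so that these shares cannot be added up. At least 1 of the 10 leading words lay within 100 bp of the centre at 385 zygonema-only sites (23.0%), against 7.23% of the windows centred 750 bp away, 20.4% of all distal centres and 10.7% of the diplonema-only centres. Among distal sites called in zygonema experiment 1 and no other list the share was 25.9%, and among those of zygonema experiment 2 alone 11.0%.

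Because the words overlap, a 16-bp matrix of base preferences was also fitted to the centres of the 851 leptonema-and-zygonema sites, a step added after the words were seen. Written with the letters that reached 50% and N elsewhere, its core reads AGNTGNTNCTGCC, or GGCAGNANCANCT on the other strand. A match was a score that 10% of the 200-bp windows centred 750 bp from those sites reached. Zygonema-only sites, on which the matrix had not been fitted, had a match within 100 bp of the centre at 768 of 1674 sites (45.9%, exact 95% interval 43.5 to 48.3), against 7.89% of their own windows centred 750 bp away. The leptonema-and-zygonema sites themselves had 53.1%, a share that the fit used. Distal diplonema-only sites had 12.4% (8.50 to 17.4) at the centre and 8.37% beside it, and all distal sites had 36.6% and 9.37%. The 4697 distal sites called in zygonema experiment 1 and no other list had 51.5% (50.1 to 53.0) at the centre, above the zygonema-only sites, and the 607 called in zygonema experiment 2 alone had 18.3% (15.3 to 21.6). A match is a description of the letters and not a binding site.

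The best matches at the 8 zygonema-only sites with the widest peaks among those with a match show how far single sites depart from these letters. Each is 16 bp, read in the orientation of the matrix, with capitals where the letter is the one the matrix names.

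Intergenic, chr1:93673458-93673473, minus strand: attAGaaGgTgCaGCC
Bri3, chr5:144364653-144364668, minus strand: accAGaaGaTgCaatC
Intergenic, chr6:135256812-135256827, plus strand: cagtGaTGcTaCTGtC
Intergenic, chr1:109537841-109537856, plus strand: ttttGcaGtcaCTGCC
Intergenic, chr6:13052426-13052441, minus strand: tcagGaaGgTtCTaCC
Intergenic, chr4:80696374-80696389, plus strand: gcaAGgTGcTagTaCC
Intergenic, chr3:119643946-119643961, plus strand: tcatGcTGcTaCTaCC
Intergenic, chr8:6951949-6951964, minus strand: ctctGaTGtTgCTGgt

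Of the 10 letters that the matrix names, these matches held from 6 to 8. The match on chromosome 6 at 13052426 lay 8 bp from the site centre, and the one on chromosome 1 at 109537841 lay 91 bp from it. Matches were concentrated at the middle of the sites. In windows of 100 bp, 21.2% and 22.5% of the zygonema-only sites had a match on the 2 sides of the centre, 14.0% and 14.2% in the next windows out, and from 3.29% to 5.14% beyond 500 bp.

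**Figure D1:**
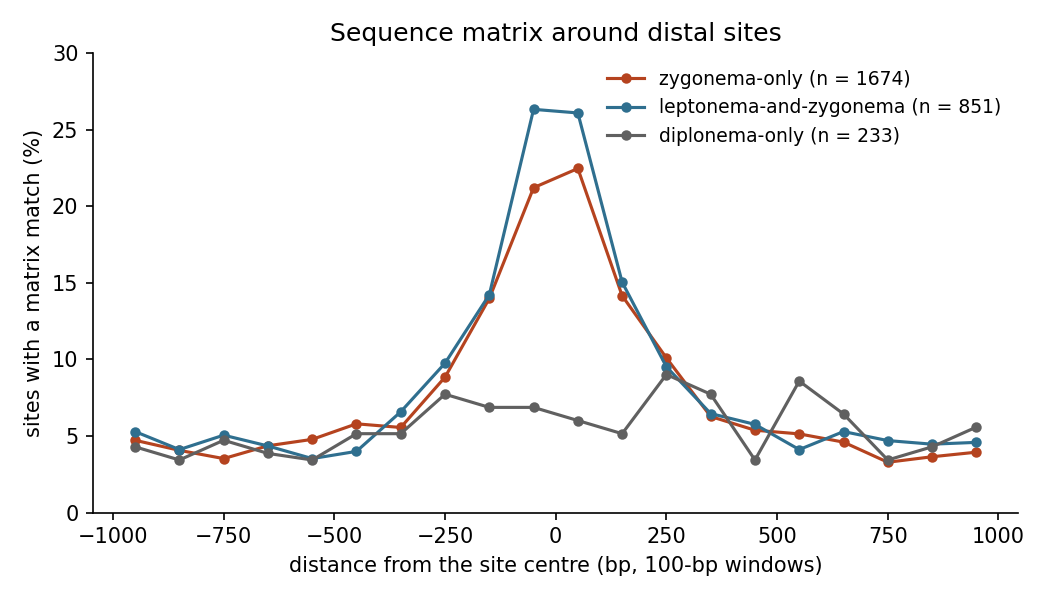
Share of sites with a match to the sequence matrix (y axis, %) in 100-bp windows by distance from the site centre (x axis, bp), for distal zygonema-only, leptonema-and-zygonema and diplonema-only sites. The zygonema-only sites rise from at most 5.14% beyond 500 bp to 22.5% beside the centre. The leptonema-and-zygonema sites, on which the matrix was fitted, rise to 26.3%.

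The match share was split by the calls of the other antibodies. It was 46.7% (43.6 to 49.8) at the 1016 zygonema-only sites with an H3K4me2/3 peak in leptonema and 44.7% (40.8 to 48.6) at the 658 without one. At the 1299 sites with an H3K9ac peak in zygonema it was 44.8% (42.1 to 47.6), and at the 375 without one 49.6% (44.4 to 54.8). Intervals here and elsewhere cover counting error over sites only.

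Around their centres, zygonema-only sites held 43.4% ± 7.28 G and C (SD over 1674 windows of 200 bp), close to the 42.1% of the windows centred 750 bp away. All distal sites held 47.2% at their centres, leptonema-and-zygonema sites 44.8% and diplonema-only sites 49.2%. The zygonema-only centres had a mean of 1.78 CpG dinucleotides per window, and the leptonema-and-zygonema centres 2.09. All distal centres had 3.95, close to the 3.98 at diplonema-only centres. Repeats masked in the RefSeq sequence made up 22.1% of the zygonema-only centres, against 22.6% of all distal centres. Of the zygonema-only centres 1.31% were masked throughout, against 3.4% of all distal centres.

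H3K4me2/3 was called at nearly every zygonema-only site in zygonema and at many of them in leptonema. In leptonema 1016 of the 1674 sites (60.7%, exact 95% interval 58.3 to 63.0) overlapped a peak, against 47.2% of all distal sites. In zygonema the number was 1610 (96.2%, 95.1 to 97.0), against 66% of all distal sites. After zygonema the calls were few, at 30 sites (1.79%, 1.21 to 2.55) in early pachynema, where all distal sites had 15.4%. In late pachynema 10 zygonema-only sites (0.597%) had a peak against 18.3% of all distal sites, and in diplonema 3 (0.179%) against 17.9%. With 1 list per stage, no test between stages was made. At every stage, leptonema included, the H3K4me2/3 list shares experiment 2 with an H3K4me3 list that the choice used, so these calls are not independent of it.

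The leptonema share is the one on which the choice and the H3K4me2/3 calls part, since no zygonema-only site has an EpiCypher peak in leptonema by the rule. The H3K4me2/3 list of leptonema is the longest of its antibody with 30943 peaks, against 29114 in zygonema and 17561 in early pachynema. When only the widest 17561 peaks of each H3K4me2/3 list were kept, the sites staying the same, the leptonema share was 11.6% (10.1 to 13.2) and the zygonema share 74.5% (72.3 to 76.6), against 23.5% and 41.7% of all distal sites. Leptonema then stood below the share of all distal sites and not above it. Early pachynema stayed at 1.79%.

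Taken site by site, 975 of the zygonema-only sites (58.2%) had H3K4me2/3 peaks in both leptonema and zygonema but not later, and 595 (35.5%) in zygonema alone. A peak in leptonema, zygonema and early pachynema was found at 24 sites, and 56 sites had none at any stage. Where both leptonema and zygonema had a peak, the zygonema peak was the wider one at 923 of 1008 sites (91.6%), with medians of 972.5 bp and 524 bp. All leptonema peaks in the H3K4me2/3 list had a median of 870 bp, and those of zygonema 836 bp. The choice asked for an H3K4me3 peak in zygonema of the same experiment and for none in leptonema. The wider zygonema peak is therefore not independent of the choice. The leptonema-and-zygonema sites had the same order of medians, with H3K4me2/3 peaks of 1462 bp in zygonema and 1107 bp in leptonema. The 3 sites with a peak in diplonema also had one in leptonema, zygonema and late pachynema. They lay in introns of Stk3, a kinase of the Hippo pathway, at a coding exon of Vat1, a vesicle protein gene, and in an intergenic stretch of chromosome 3 from 50905978 to 50907403, and were singled out after their values were seen.

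H3K9ac was called at these sites in zygonema and hardly at any other stage, and zygonema was also the highest stage at all distal sites. In zygonema 1299 sites (77.6%, exact 95% interval 75.5 to 79.6) overlapped a peak, against 42.7% of all distal sites. The H3K9ac lists carry the same experiment number as the first H3K4me3 list of each stage, which the choice used, so they are not independent of it either. In leptonema no zygonema-only site had a peak (0 of 1674, interval up to 0.220%), where all distal sites had 0.62%. In early pachynema 1 site had a peak, against 3.24% of all distal sites. Late pachynema and diplonema had no peak at any zygonema-only site, against 0.681% and 0.612% of all distal sites. The lists were of very unequal length, with 16003 peaks in zygonema, 7744 in early pachynema, 2823 in leptonema, 1727 in late pachynema and 516 in diplonema. Kept to the 516 widest peaks of each list, H3K9ac was called at 16 zygonema-only sites in zygonema (0.956%, 0.547 to 1.55), against 0.895% of all distal sites, and at none of them in the other 4 lists. At that length the 2 shares lay within the interval of the first. The 1 site with an H3K9ac peak in early pachynema, in an intron of the magnesium transport gene Cnnm2 on chromosome 19 from 46851500 to 46852487, had H3K9ac peaks of 728 bp in zygonema and 401 bp in early pachynema.

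**Figure D2:**
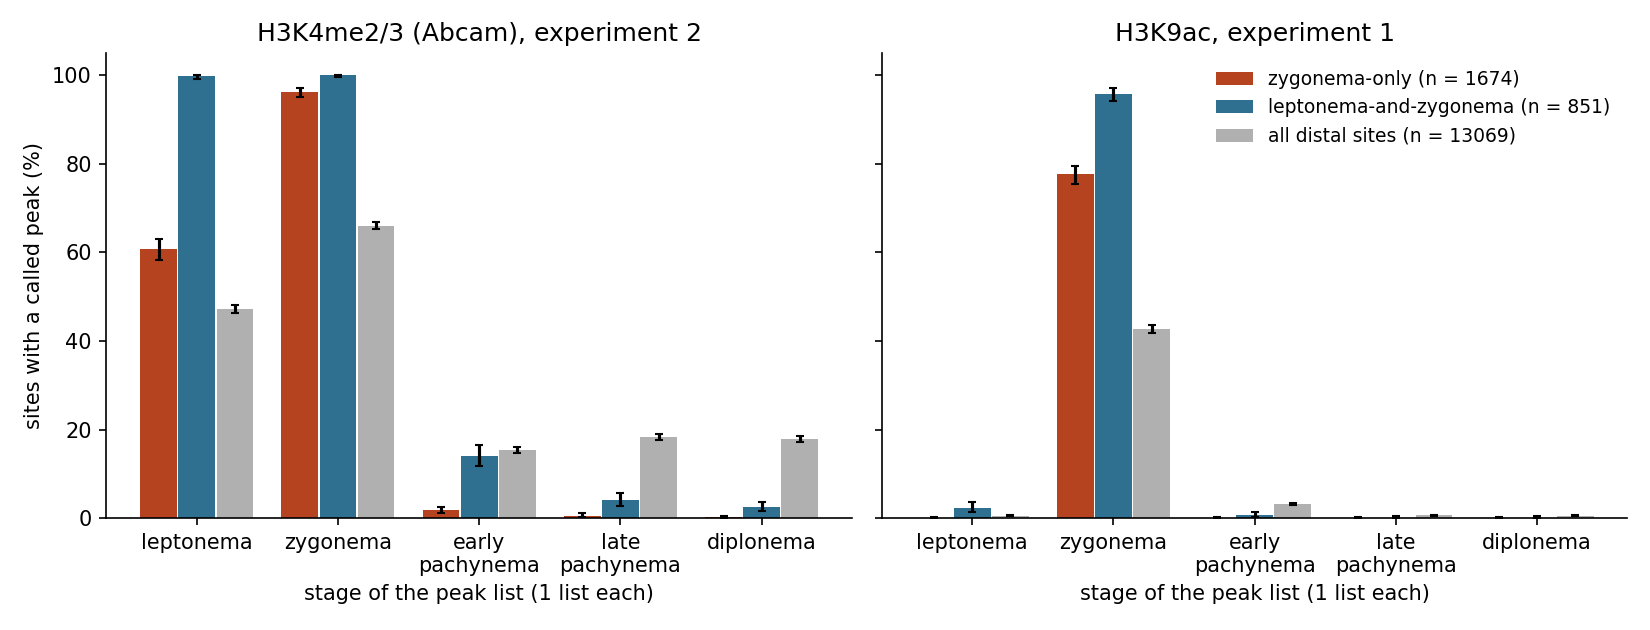
Share of sites with a called H3K4me2/3 peak (left) or H3K9ac peak (right) in each of 5 stages (y axis, %), for distal zygonema-only sites, leptonema-and-zygonema sites and all distal sites. Bars are shares in 1 list per stage and error bars exact 95% binomial intervals over sites. Zygonema-only sites reach 96.2% and 77.6% in zygonema and stay at or below 1.79% after it.

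The calls were also combined site by site. These combinations were not counted over all distal sites. Whether the calls met more often than their separate shares would give was not tested. At 861 zygonema-only sites (51.4%) there was an H3K4me2/3 peak in leptonema and zygonema and an H3K9ac peak in zygonema. At 412 sites (24.6%) the H3K4me2/3 peak was missing in leptonema, with both zygonema peaks present, and at 190 (11.4%) H3K4me2/3 was called in zygonema with neither of the other peaks. None of these 3 peaks was found at 36 sites (2.15%). The widest of these 36, intergenic on chromosome 6 from 10033339 to 10034855, had H3K4me3 peaks of 1517 bp and 764 bp in zygonema experiments 1 and 2 and no peak in any of the 10 other lists.

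The leptonema-and-zygonema sites differed from the zygonema-only sites in the share of calls outside zygonema. In early pachynema 14.1% (11.8 to 16.6) of them had an H3K4me2/3 peak, against 1.79% of the zygonema-only sites, and the intervals did not overlap. All distal sites had 15.4%, but they include sites with H3K4me3 peaks in later stages, which the choice of both sets left out. That share therefore cannot tell which of the 2 sets departs. In leptonema 2.35% (1.44 to 3.61) of the leptonema-and-zygonema sites had an H3K9ac peak, against no zygonema-only site and 0.62% of all distal sites. In zygonema 95.8% of the leptonema-and-zygonema sites had one. Their H3K4me3 peaks in zygonema were wider, with medians of 1334 bp and 1086 bp in experiments 1 and 2. Width and the length of the lists move together with these shares, and their part in them was not tested.

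Widths at the zygonema-only sites ran from 154 bp to 3651 bp in experiment 1, with a median of 856.5 bp (quartiles 677.5 and 1031 bp). In experiment 2 they ran from 150 bp to 3840 bp, with a median of 508.5 bp (319 and 706.5 bp). The median peak stood at percentile 66.8 of all peaks of experiment 1 and at percentile 44.8 of experiment 2. The experiment 1 peak was the wider one at 1412 sites (84.3%). The 2 zygonema peaks overlapped directly at 1673 sites, and at 1587 (94.8%) by at least 50% of the shorter one. At the remaining site, on chromosome 6, the 2 peaks adjoined end to end.

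**Figure D3:**
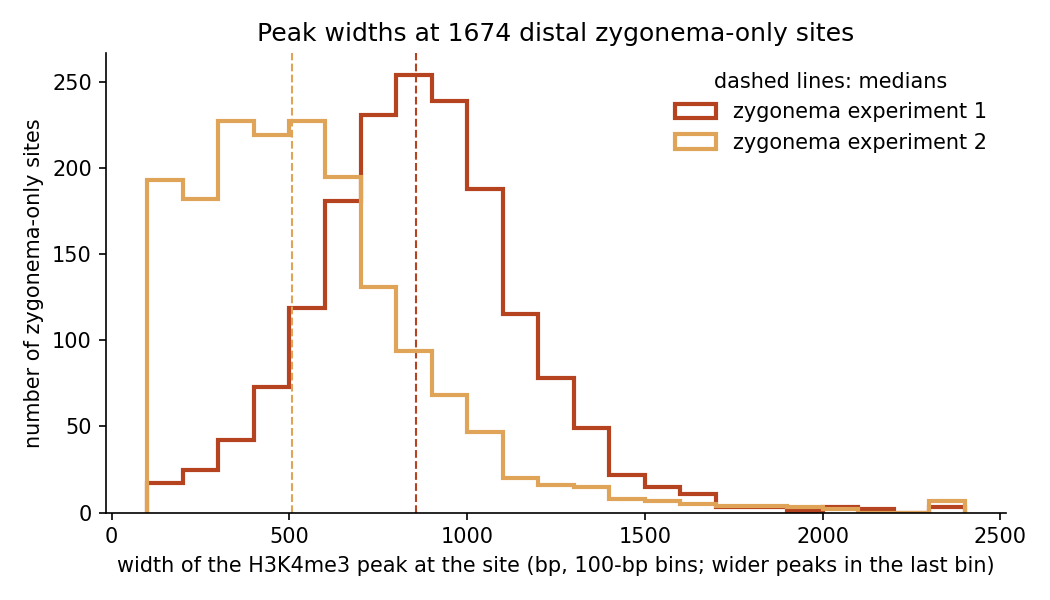
Number of distal zygonema-only sites (y axis) by the width of their H3K4me3 peak (x axis, bp, 100-bp bins) in zygonema experiments 1 and 2, with peaks above the axis range in the last bin. Dashed lines mark the medians of 856.5 bp and 508.5 bp.

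Wider sites had more calls of the other antibodies. The sites were split into 4 groups of equal size by their mean width percentile in the 2 zygonema lists. The H3K4me2/3 share in leptonema was 42.0% (37.2 to 46.9) in the narrowest group, 53.8% and 65.8% in the middle groups and 81.1% (77.1 to 84.8) in the widest. In zygonema it went from 90.5% to 99.0%. The H3K9ac share in zygonema was 67.3% (62.6 to 71.8) in the narrowest group, 78.7% and 78.2% in the middle groups, and 86.2% (82.5 to 89.3) in the widest. Other distal sites were not counted by width, so the rise is not shown to be particular to these sites. A call needed 1 bp of overlap, and the part of site width itself in the rise was not tested.

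**Figure D4:**
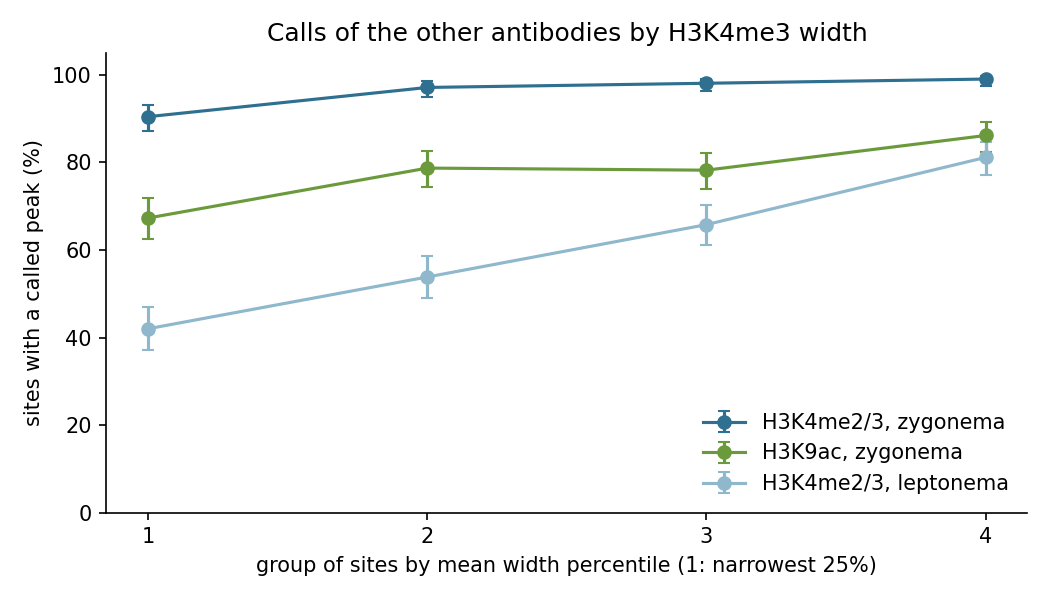
Share of distal zygonema-only sites with a called peak of the other antibodies (y axis, %) in 4 groups by mean H3K4me3 width percentile in zygonema (x axis, 1 is the narrowest), with exact 95% binomial intervals over sites. The leptonema H3K4me2/3 share goes from 42.0% to 81.1%, and the zygonema shares rise less.

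The widest sites show the course at single places. On chromosome 17 from 27451928 to 27455578, at a coding exon of Grm4, which encodes a metabotropic glutamate receptor, the H3K4me3 peak was 3651 bp wide in zygonema experiment 1 and 2328 bp in experiment 2. H3K4me2/3 was 549 bp wide there in leptonema and 3568 bp in zygonema, and H3K9ac was 2545 bp wide in zygonema. All 3 antibodies had no peak at this site in any later list.

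In an intron of Slit3, which encodes a secreted guidance protein, the site on chromosome 11 from 35670350 to 35672479 had H3K4me3 peaks of 2130 bp and 1898 bp. Its H3K4me2/3 peaks were 881 bp in leptonema and 1635 bp in zygonema. In an intron of the adenosine receptor gene Adora2b, on chromosome 11 from 62259600 to 62261406, the H3K4me3 peaks were 1721 bp and 1696 bp, the H3K4me2/3 peaks 850 bp and 1627 bp, and the H3K9ac peak 1790 bp. These sites had narrower H3K4me2/3 in leptonema than in zygonema.

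The order was not the same everywhere. The intergenic site on chromosome 1 from 93672703 to 93674491 had H3K4me3 peaks of 1726 bp and 1595 bp, with H3K4me2/3 at 1218 bp in leptonema and 878 bp in zygonema, the reverse of the order at Grm4, Slit3 and Adora2b. The intergenic site on chromosome 16 from 53442190 to 53444267, with H3K4me3 peaks of 2078 bp and 1278 bp, had no H3K4me2/3 peak in leptonema and one of 624 bp in zygonema. Of the 10 sites with the highest mean width percentile, 6 were intergenic and 4 had their centre in an intron, of Grm4, Slit3, Adora2b and Cadm2, a cell adhesion gene.

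By gene context, 899 of the zygonema-only sites (53.7%, exact 95% interval 51.3 to 56.1) had their centre in an intron, 686 (41.0%, 38.6 to 43.4) between genes and 89 (5.32%, 4.29 to 6.50) in an exon. Of the autosomal sequence beyond 500 bp from a transcript 5′ end, 43.3% is intron, 52.6% intergenic and 4.01% exon. All distal sites had 45.8% in introns and 44.6% between genes, and diplonema-only sites 37.8% (31.5 to 44.3) and 53.2%. The leptonema-and-zygonema sites had 54.8% (51.3 to 58.1) in introns, an interval that overlapped that of the zygonema-only sites. Counted over the whole site, 157 zygonema-only sites (9.38%) touched a coding exon, against 11.2% of all distal sites. The nearest transcript 5′ end was at a median distance of 12894.5 bp, with 26.2% of the sites within 5 kb and 16.8% beyond 50 kb, against 29.8% and 14.0% of all distal sites.

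The sites touched the bodies of 951 genes, of which 819 (86.1%) were protein-coding and 93 (9.78%) long intergenic noncoding or antisense RNA genes. These protein-coding genes were long, with a median of 118 kb against 17.6 kb for all protein-coding genes. Both zygonema lists had an H3K4me3 peak at a 5′ end of 47.5% (44.0 to 51.0) of them, against 32.9% of all 20807 protein-coding genes. The part of gene length in this difference was not tested.

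Most genes held a single site, and 85 genes held 2 or more. Zfhx3, which encodes a homeobox transcription factor and spans 1019 kb of chromosome 8, held 4 sites, all with H3K9ac in zygonema and 2 with H3K4me2/3 in leptonema. Its own 5′ ends did not have an H3K4me3 peak in both zygonema lists. In order along the gene, the H3K4me3 widths of its sites in experiment 1 were 577 bp, 883 bp, 771 bp and 725 bp, and in experiment 2 they were 694 bp, 1224 bp, 637 bp and 1086 bp. The widths of these 4 sites thus varied less in experiment 1 than in experiment 2.

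Another 10 genes held 3 sites each. They were Asic2, an acid-sensing ion channel gene, Elmo1, an activator of Rac signalling, the ephrin receptor gene Epha6, the exocyst gene Exoc4, the predicted gene Gm20388, which spans several other genes, the cell adhesion gene Opcml, the kinase genes Prkg1 and Rps6ka5, the sodium-proton exchanger gene Slc9a9 and the teneurin gene Tenm2. Of the 11 genes, Rps6ka5 and Gm20388 had a promoter peak in both zygonema lists. Rps6ka5 was the shortest at 179 kb. At its sites the H3K4me3 peaks were 1550 bp, 973 bp and 494 bp in experiment 1 and 459 bp, 433 bp and 367 bp in experiment 2.

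Genes of meiotic recombination held sites at about the share of protein-coding genes in general, which was 3.94% (819 of 20807). Of 48 autosomal genes in 4 lists (DNA break formation, strand exchange, crossover formation, and the axis and synaptonemal complex), 2 had one in the gene body (4.17%, exact 95% interval 0.509 to 14.3), both from the crossover list. Msh4, which encodes a MutS homologue that stabilises recombination intermediates, had an intronic site with H3K4me3 peaks of 519 bp and 372 bp and no H3K4me2/3 peak in leptonema. Rnf212b, a RING finger gene of crossover formation, had a site at a coding exon with peaks of 1190 bp and 461 bp. None of the 14 break genes, 12 strand exchange genes and 11 axis genes found in the annotation held a site.

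Of the sites at coding exons, those with the widest peaks after Grm4 were in Adamts6, Dnmt3b, Maml1 and Gmnc. Dnmt3b encodes a de novo DNA methyltransferase. Its site, on chromosome 2 from 153661251 to 153662616, had H3K4me3 peaks of 1305 bp and 1310 bp in the 2 experiments, H3K4me2/3 peaks of 802 bp in leptonema and 1808 bp in zygonema, and an H3K9ac peak of 1878 bp. At the Adamts6 site, in a gene for a secreted metalloprotease, the H3K4me3 peaks were 1642 bp and 1230 bp and the H3K9ac peak was 211 bp. The widths of H3K4me3 and H3K9ac thus ran apart between these exons.

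Of the 14 hotspots annotated in the regions that the source data of the study display, 1 overlapped a zygonema-only site and 5 overlapped a leptonema-and-zygonema site. Sites outside these regions could not be scored, and the sites of each set inside them were not counted. The counts therefore give no share of either set at hotspots, and whether the sets differ in this was not tested. The zygonema-only site at a hotspot was intergenic on chromosome 10, from 92535101 to 92536342. Its H3K4me3 peaks were 830 bp and 1103 bp in zygonema, its H3K4me2/3 peaks 307 bp in leptonema and 545 bp in zygonema, and its H3K9ac peak 703 bp.

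At the limit of 500 bp, the nearest zygonema-only sites were in Samhd1 at 510 bp from a transcript 5′ end, in Ints10 at 511 bp and in Sh3yl1 at 531 bp. The sites that just missed were in Ampd1 at 495 bp, in Jam3 at 492 bp and between genes on chromosome 7 at 486 bp. The Sh3yl1 site had H3K4me2/3 peaks of 2670 bp in leptonema, 2967 bp in zygonema and 3646 bp in late pachynema, and the chromosome 7 site had such peaks in late pachynema and diplonema as well. The other 4 sites had none after zygonema.

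The sites were spread over all 19 autosomes, from 48 on chromosome 19 to 146 on chromosome 2. Per Mb of sequence there were from 0.575 sites on chromosome 3 to 0.859 on chromosome 11, with 0.699 over all autosomes. As a share of each chromosome's distal sites they made up from 11.2% on chromosome 9 to 15.4% on chromosome 16. The leptonema-and-zygonema sites varied more, from 0.137 per Mb on chromosome 18, where 12 were found beside 67 zygonema-only sites, to 0.488 on chromosome 11.

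Along the chromosomes, 134 zygonema-only sites (8.00%, exact 95% interval 6.75 to 9.41) lay in the distal 10 Mb, which holds 7.73% of the autosomal sequence considered. All distal sites had 9.60% (9.10 to 10.1) there and diplonema-only sites 14.2% (9.95 to 19.3). In the first 10 Mb from the centromere lay 111 zygonema-only sites (6.63%, 5.49 to 7.93), where the sequence share is 7.93%. All distal sites had 6.04% (5.64 to 6.47) there, a share within the zygonema-only interval. Of the leptonema-and-zygonema sites, 2.70% (1.72 to 4.03) lay there. The intervals of the zygonema-only and the leptonema-and-zygonema sites did not overlap at the centromere end. They overlapped at the distal end, where the leptonema-and-zygonema sites had 7.52%.

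**Figure D5:**
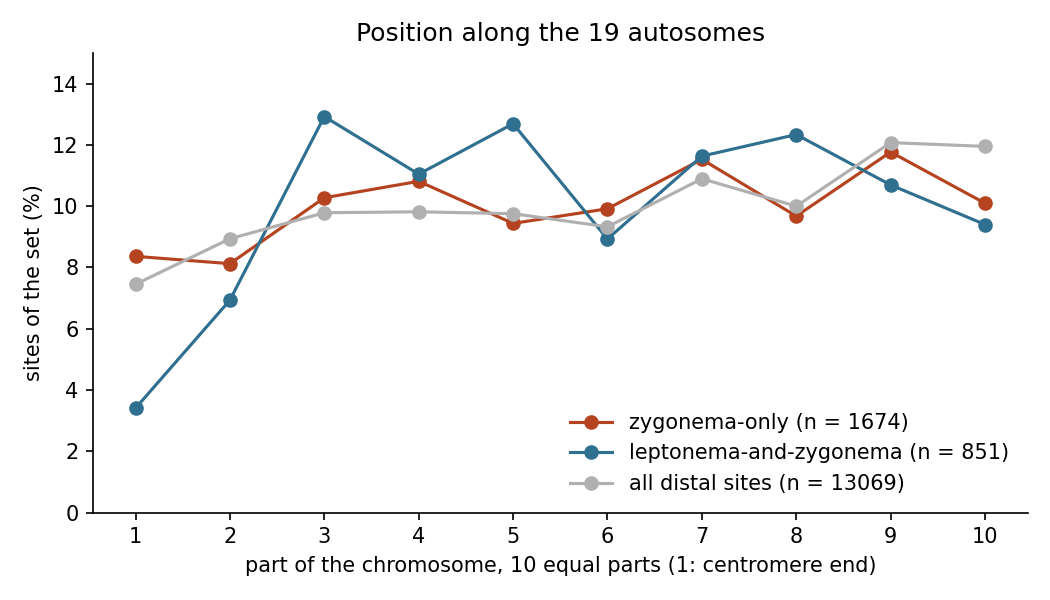
Share of the sites of each set (y axis, %) in 10 equal parts of the chromosome from the centromere end to the distal end (x axis), over the 19 autosomes. Zygonema-only sites stay between 8.12% and 11.8%, while leptonema-and-zygonema sites start at 3.41% in the part next to the centromere.

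The sites were seldom close together. The nearest other zygonema-only site was at a median distance of 433 kb (quartiles 179 and 880 kb), and 26 sites (1.55%) had one within 10 kb. The nearest leptonema-and-zygonema site was at a median of 1102 kb, but these sites were fewer, with 0.355 per Mb against 0.699. Among themselves the leptonema-and-zygonema sites lay at a median of 576 kb, and 0.940% had another within 10 kb. Of 2473 bins of 1 Mb, 1149 held a zygonema-only site and 756 of these held 1. The highest number in a bin was 5, in 3 bins on chromosomes 12 and 13, and 22 bins held 4 or more.

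Since the rule used all 10 H3K4me3 lists, the experiments were also set against each other, choosing sites on the lists of 1 experiment and counting peaks in the other. Chosen on experiment 1, 6652 distal sites had a peak in zygonema and in no other stage. In experiment 2, 28.1% (27.1 to 29.2) of them had a zygonema peak and 3.74% a leptonema peak, with 0.0451%, 0.316% and 0.481% in the 3 later stages in order. The mean of the other 4 lists was 1.15%, below zygonema (two-sided exact permutation test over 5 arrangements, p = 0.2, the smallest that 1 list against 4 allows). Chosen on experiment 2, 2777 sites had 77.9% (76.3 to 79.4) in zygonema of experiment 1, 15.5% in leptonema and at most 0.108% in each later stage. The difference was 73.9 points (same exact test, p = 0.2, the smallest possible). This design cannot pass a threshold of 0.05. In experiment 1 the zygonema list was the longest with 15699 peaks, against 9528 in leptonema. In experiment 2 the leptonema list with 13095 peaks and the diplonema list with 12071 were longer than zygonema with 11314. The share of all distal sites with a peak in each list is not given here. The part of list length in the held-out shares was therefore not tested.

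The number of sites depended on the zygonema libraries. Without zygonema experiment 2, the rule gave 6383 sites, of which 31.3% had an H3K4me2/3 peak in leptonema and 53.3% an H3K9ac peak in zygonema. Without zygonema experiment 1 it gave 2341 sites, with 48.1% and 57.6%, and 49.1% had their centre in an intron. A single zygonema list of experiment 1 held 4697 distal sites called in no other list. Zygonema experiment 2 alone held 607. A peak in exactly 1 further list kept 605 distal sites with both zygonema peaks from being zygonema-only. For 435 of them that list was leptonema experiment 1, for 165 it was leptonema experiment 2, and for 5 it was a list of a later stage.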

How the data were processed

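Reads were mapped to mm10 by the authors with BWA mem 0.7.12, and peaks were called for each library with MACS2 2.1.2 in broad mode (q of 0.1) against input of the same stage. This is stated for H3K4me3. For H3K9ac the control is not given in the sources used here. As deposited, the lists hold peak positions on chromosomes 1 to 19 and no score, read count or depth. No replicates were pooled. Of 51 samples, 20 had a list, and 31 (inputs, a survey of marks on other chromatin and a control without antibody) were not analysed here.

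Lists were merged where peaks overlapped or adjoined, with Python 3.11.15 (numpy 2.4.6, scipy 1.17.1, pysam 0.24.0). A peak was counted at a site from 1 bp of overlap. Context came from GENCODE M21 on the same build, and sequence from RefSeq GRCm38.p6. The centre of a site was the middle of the overlap of its zygonema peaks, or of the merged site where there was none. Shares have exact (Clopper-Pearson) 95% intervals. Words of 8 bp within 100 bp of the centre were set against 200-bp windows from 650 to 850 bp away on both sides. Hotspots reached 500 bp to each side of their midpoints.

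The rule for named items gave the 10 sites with the highest mean width percentile, the genes with the most sites, genes of fixed lists, annotated hotspots, sites with H3K9ac outside zygonema, 5 coding-exon sites, 3 sites on either side of the distance limit, and 6 sequences, of which 2 are not reported here. Not all of the other items are described. Chromosome 18 and windows in untranslated regions were passed over among the sequences. The members, lists and rule were chosen with earlier results of these data known. The matrix and the lists of equal length for the other antibodies alone were added after seeing the data. The 2 libraries of a stage are separate experiments by their labels, and whether they came from separate animals is not given in the sources used here, so the spread between them may be technical. Steps were tested on simulated lists and sequences.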

Additional observations from a re-analysis of the deposited data

How the results depend on the processing

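There were 1114 zygonema-only sites with the wider peaks of each list only and 754 with equal list sizes, where each list kept its 4883 (H3K4me3), 17561 (H3K4me2/3) or 516 (H3K9ac) widest peaks. The share with an H3K4me2/3 peak in leptonema was 20.5% among wider peaks, 39.0% with equal list sizes, 30.7% where the peak had to cover 50% of the site, 70.1% where a peak in 1 of the other 8 lists was allowed, and 11.6% with equal lists for the other antibodies only. In the same order, the zygonema share was 79.8%, 94.6%, 85.3%, 97.1% and 74.5%, and the H3K9ac share in zygonema 61.3%, 2.39%, 61.9%, 81.6% and 0.956%. With no transcript 5′ end within 5000 bp, 50.9% of sites were in introns and 74.6% had H3K9ac. With equal list sizes, 5.57% lay in the distal 10 Mb and the median width in experiment 1 was 1122.5 bp. The leading word stood within 200 bp of the centre at 8.12% of sites. Leaving out each H3K4me3 library in turn, the number ranged from 1674 to 6383 (without zygonema experiment 2), introns from 49.1% to 54.2%, the distal 10 Mb from 7.25% to 9.18%, H3K4me2/3 in leptonema from 31.3% to 67.9% and in zygonema from 75.6% to 96.9%, H3K9ac from 53.3% to 80.7%, the median width from 616 to 900 bp and the leading word from 4.23% to 6.97%. The cause of these shifts was not tested, beyond the shorter lists that some settings use. Both differences between experiments kept their direction in every setting run. The other results under the other settings stayed within the interval of the value reported, within the spread between libraries for widths, or within 1.5 times for the number. No paired analysis was possible because each test between experiments uses the 5 libraries of 1 experiment, with 1 library per stage, and the other results come from no test. Peak heights and depth are unknown, so a missing call limits the level of a mark only down to the threshold of the caller.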
